A study of Mus musculus with 24 samples.

Results

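Of 12378 genes tested, 111 had a lower messenger RNA level after 1 h of depolarization than before it, both in inhibitory neuron cultures and in cortical neuron cultures, and these 111 genes (0.897%) are described here. They were chosen on measured values. On the log2 scale, the mean of the 4 arrays at 1 h minus the mean of the 4 arrays at 0 h, wild-type and knockout together, was at most -0.5 in each culture. That difference is a modest loss, and 170 genes (1.37%) met it. Of these, 59 had symbols starting with Zfp, the large zinc finger family, and were left out; 0 were potassium channel genes starting with Kcn. Of the 111 genes, 85 have gene names and 26 have Riken, Gm, LOC or other predicted names. The change from 0 h to 1 h, on which the genes were chosen, is given below as a description with no test.

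The cultures came from littermate mouse embryos at embryonic day 14 on the C57Bl/6 background, wild type (WT) or knockout (KO) for Npas4, an activity-induced transcription factor. Neurons were taken from the medial ganglionic eminence (MGE), the embryonic source of many cortical inhibitory interneurons, or from the cortex (CTX). All groups, the 0 h controls included, were grown for 10 days per the sample labels (9 days per the series text) and silenced overnight on day 9. The silencing agents were tetrodotoxin (TTX), a blocker of action potentials, and AP-5, an NMDA receptor antagonist. Depolarization with 55 mM KCl then lasted 0, 1 or 6 h. The 12 groups of cell type, genotype and time had 2 arrays each, and the labels do not say whether these were separate cultures or pooled embryos, so the p-values measure only the spread between these arrays. In all groups the comparison is therefore with silenced cells, not with spontaneously active ones.

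Depolarization opens voltage-gated calcium channels, and the calcium signal switches on rapid response genes such as Fos and Egr1 within the hour. As background, a transcript can drop on the same time scale if its RNA is short-lived and its synthesis slows, or if its RNA is actively removed. An array measures the amount of RNA, so synthesis and decay cannot be told apart, and in bulk cultures fewer cells of a type and less RNA per cell cannot be told apart either.

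The stimulation was seen in every culture. Fos went from 6.58 to 8.24 (log2 intensity) in the 4 MGE arrays at 0 h to 13.21 to 13.48 at 1 h, and from 7.66 to 8.82 to 13.99 to 14.29 in CTX. At 1 h Npas4 ranged from 11.20 to 12.04 over the 4 WT arrays of both cultures and from 6.80 to 7.35 over the 4 KO arrays, and the genotypes did not overlap. Markers of excitatory cortical neurons had a mean of 4.53 to 4.92 in MGE arrays and 11.7 to 12.4 in CTX arrays. Markers of MGE interneurons had a mean of 13.1 to 13.3 in MGE arrays and 10 to 11 in CTX arrays, so interneuron markers were also detected in the CTX cultures. The 2 arrays of a group correlated across genes at 0.951 in MGE WT at 0 h and at 0.965 or more in every other group. At 6 h in CTX the arrays of the 2 repeats stood apart for these genes, as given with the 6 h results.

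Promoter sequences are shown for 4 of the genes whose courses frame the results. Txnip fell most in both cultures, Kbtbd8 fell and stayed low in both, Zkscan4 reached the lowest level relative to 0 h in CTX at 6 h, and Ppp1r3c returned to its starting level or above it in CTX. Each line gives the 250 bases before the RefSeq transcription start, 5′ to 3′ on the gene's strand, in build GRCm38.p6. Capitals mark matches on either strand to the motifs searched. The positions are chr3:96557707-96557956 (plus strand) for Txnip, chr6:95117630-95117879 (plus strand) for Kbtbd8, chr13:21478599-21478848 (plus strand) for Zkscan4 and chr19:36736605-36736854 (minus strand) for Ppp1r3c.
Txnip: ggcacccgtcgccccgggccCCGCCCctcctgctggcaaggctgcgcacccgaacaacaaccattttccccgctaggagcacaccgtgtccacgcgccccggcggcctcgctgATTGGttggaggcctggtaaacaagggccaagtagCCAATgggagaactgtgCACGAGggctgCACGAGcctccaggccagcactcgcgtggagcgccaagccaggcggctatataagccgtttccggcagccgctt
Kbtbd8: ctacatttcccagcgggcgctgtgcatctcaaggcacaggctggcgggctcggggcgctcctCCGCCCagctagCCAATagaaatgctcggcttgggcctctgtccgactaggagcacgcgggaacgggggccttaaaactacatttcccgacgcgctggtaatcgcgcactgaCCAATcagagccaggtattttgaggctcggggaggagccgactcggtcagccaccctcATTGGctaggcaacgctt
Zkscan4: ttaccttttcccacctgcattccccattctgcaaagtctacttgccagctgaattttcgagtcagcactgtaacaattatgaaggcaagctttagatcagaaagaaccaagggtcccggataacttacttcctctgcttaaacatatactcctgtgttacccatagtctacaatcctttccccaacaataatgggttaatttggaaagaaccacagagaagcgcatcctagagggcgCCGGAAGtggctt
Ppp1r3c: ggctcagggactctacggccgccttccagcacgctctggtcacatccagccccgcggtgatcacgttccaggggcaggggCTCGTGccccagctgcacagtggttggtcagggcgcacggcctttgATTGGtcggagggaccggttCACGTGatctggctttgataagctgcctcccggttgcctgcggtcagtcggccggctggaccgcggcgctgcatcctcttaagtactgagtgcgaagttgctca

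In the Txnip window the capitals mark a pair of CACGAG boxes, at 85 to 80 and 74 to 69 bases before the start. As background, this pair is known as the carbohydrate response element through which the glucose-sensing factors MondoA and ChREBP act on Txnip. A CCAAT box lay at 102 to 98 bases before the start of Txnip, another on the opposite strand at 137 to 133, and a GC box (GGGCGG on the opposite strand) at 230 to 225. Kbtbd8 had 3 CCAAT boxes and 1 GC box, Zkscan4 had an ETS motif (CCGGAAG) at 13 to 7, and Ppp1r3c had an E-box (CACGTG) at 104 to 99, a CCAAT box and a CACGAG box on the opposite strand. A match is a description of letters, not a site.

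RefSeq promoters were matched for 90 of the 111 genes (97 promoters) and compared with 12899 promoters of tested genes, both as windows of 300 bases, 250 before and 50 after the start, with motifs read on both strands. The cyclic AMP response element TGACGTCA, the site of CREB, was in 7.22% of the promoters of the falling genes and in 3.02% of the promoters of tested genes. Its shorter form TGACG was in 33.0% and 30.7%, and every full element also holds it. The ETS motif CCGGAAG was in 22.7% and 16.4%, the CCAAT box in 40.2% and 37.4%, the AP-1 motif TGANTCA in 6.19% and 4.84%, and the E-box CACGTG in 9.28% and 9.62%. The remaining motifs were no more frequent in the falling genes. These were GGGCGG (53.6% and 62.2%), TATAAA (3.09% and 7.24%), the YY1 motif AAGATGG (3.09% and 6.71%), the NRF1 motif GCGCATG (6.19% and 6.69%) and CACGAG (7.22% and 8.3%), which was added after the Txnip promoter had been read. The median GC content was 58.3% against 61.0%. These shares are descriptions, and 7 promoters lie behind the full response element.

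Txnip, which binds thioredoxin and restrains glucose uptake, had the deepest fall. In MGE its log2 intensity at 0 h was 10.23 and 8.16 in the WT arrays and 10.08 and 10.58 in the KO arrays, and at 1 h it was 7.23, 7.57, 7.24 and 7.79 in the same order. In CTX it was 11.02, 11.45, 10.97 and 11.04 at 0 h, then 8.05, 9.64, 8.28 and 8.39 after 1 h. All arrays at 1 h lay below all arrays at 0 h in each culture, with 1 low WT array at 0 h in MGE and 1 high WT array at 1 h in CTX. The means differed by -2.31 in MGE (4.94-fold lower) and -2.53 in CTX (5.78-fold lower). A second, dimmer probe set of Txnip differed by -0.47 in MGE and -1.67 in CTX.

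The next deepest falls were in proteins of varied function. Tigd5, a protein derived from a Tigger transposase, went from a mean of 8.41 to 6.31 in MGE and from 8.0 to 6.62 in CTX. Its other 2 probe sets, both dimmer, also differed downward, by -1.36 and -0.36 in MGE and -1.25 and -0.30 in CTX. Wdr38, a WD-repeat protein, had 9.07, 8.84, 8.86 and 8.68 in the MGE arrays at 0 h, then 7.53, 7.48, 7.28 and 7.31 after 1 h, and went from 8.71 to 9.0 down to 6.65 to 6.81 in CTX. These Wdr38 arrays were tightly grouped, but a second Wdr38 probe set near the bottom of the scale (mean 5.13) differed by 0.00012 in MGE and 0.039 in CTX. Kbtbd8, a substrate adaptor of the cullin 3 ubiquitin ligase, went from 9.66 to 9.91 down to 7.98 to 8.39 in CTX. In MGE Kbtbd8 was 7.55, 6.33, 7.71 and 8.31 at 0 h, then 5.73, 6.16, 6.30 and 6.35 after 1 h, where the highest array at 1 h lay just above the lowest at 0 h. Among genes without an established name, 1700012D14Rik, chosen after its values were seen, differed by -2.14 in MGE and -1.65 in CTX.

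**Figure D1:**
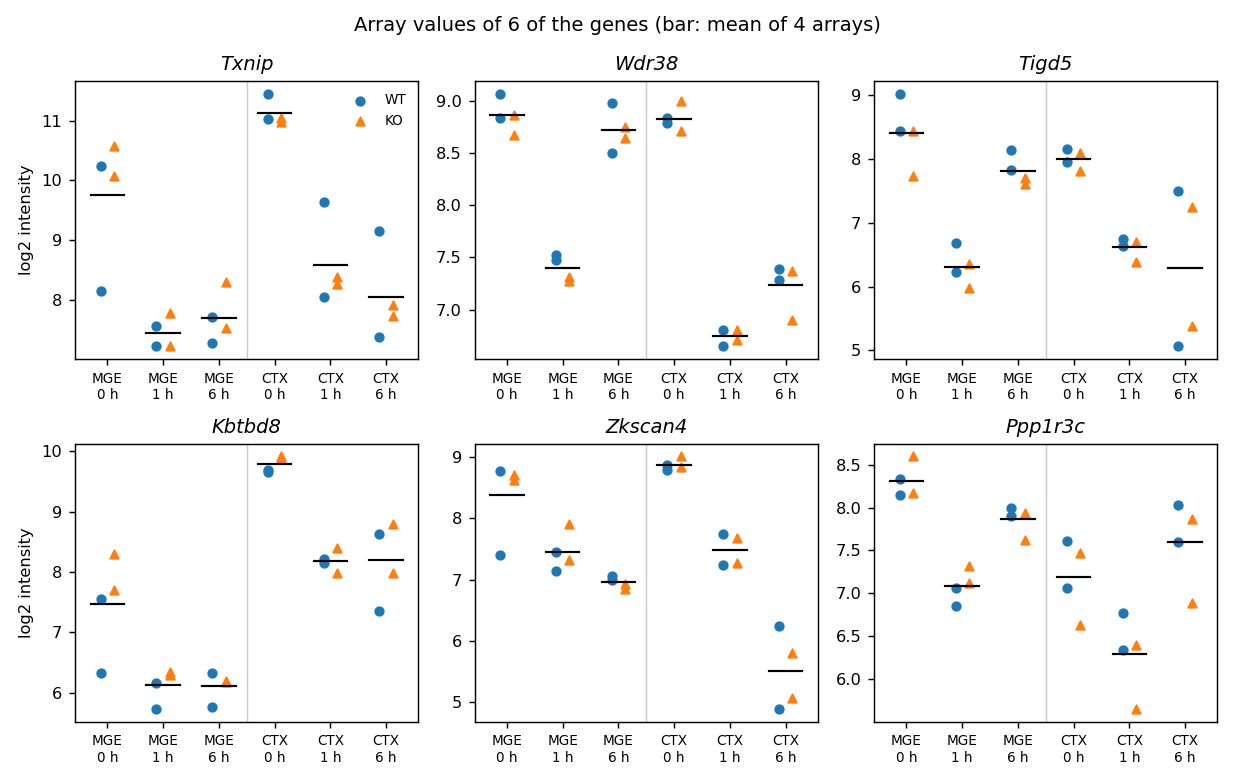
Log2 intensity (y axes) of 6 of the genes in every array, by culture and time; circles are WT arrays, triangles KO arrays and bars the means of 4 arrays. Txnip, Wdr38, Tigd5 and Kbtbd8 sit lower at 1 h in both cultures, Wdr38 returns from 7.40 to 8.72 in MGE at 6 h, Zkscan4 reaches 5.50 in CTX at 6 h, and Ppp1r3c goes from 6.29 to 7.60 in CTX between 1 and 6 h.

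Across the 111 genes the median difference at 1 h was -0.745 in MGE (1.68-fold lower; range -2.31 to -0.503) and -0.777 in CTX (1.71-fold lower; range -2.53 to -0.514), while over all tested genes the median was -0.00959 and -0.0158. In MGE 27 genes and in CTX 28 genes differed by at most -1. The 4 arrays at 1 h lay entirely below the 4 at 0 h for 80 genes in MGE, where 3.21% of all tested genes did so, and for 106 genes in CTX, where 9.02% did. In both cultures together 78 of the 111 genes had no overlap, a count for which the share of all tested genes is not given. The same arrays chose the genes, so these counts are descriptions. By comparison, 243 tested genes met the difference in MGE (1.96%) and 364 in CTX (2.94%), and 137 genes (1.11%) were at least 0.5 higher in both. With predicted names set aside, the genes nearest the threshold were Bcdin3d, Tut1, Zcchc3 and Fam122a. Bcdin3d, an RNA methyltransferase, differed by -0.77 in MGE and -0.51 in CTX, and Tut1, a terminal uridylyltransferase, by -0.69 and -0.51. Zcchc3, a nucleic acid-binding zinc finger protein, differed by -0.51 and -1.47, and Fam122a, an inhibitor of protein phosphatase 2A, by -0.53 and -0.51. Just outside it, by the same choice, lay Mamld1 (-0.64 and -0.50), Fancf (-0.50 and -1.02), BC037704 (-0.78 and -0.50) and Nefh (-0.50 and -0.72).

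DNA-binding and chromatin proteins were the most numerous named group together with RNA-processing proteins, with 15 genes each. These role groups were drawn up after the genes were known, 31 genes received no role, and the counts are descriptions. The DNA-binding group had a median fall of -0.961 in MGE and -0.872 in CTX. It held zinc finger genes outside the Zfp series. Of 76 tested genes with other zinc finger symbols (a list by name, not of all such genes), 5 were among the 111 (6.58%; the rule took 0.897% of all genes). These were Zkscan14, Zscan22, Zkscan4, Zscan20 and Zbtb8b. Zkscan14, a SCAN and KRAB zinc finger protein, went from 9.97 to 10.69 down to 8.72 to 9.29 in MGE and from 9.13 to 9.46 down to 7.71 to 8.14 in CTX, without overlap in either culture. Its other 2 probe sets (means 7.20 and 7.49) differed by only -0.20 and -0.13 in MGE and -0.25 and -0.20 in CTX. Rsl1, a KRAB zinc finger repressor of sex-dependent liver genes, differed by -1.34 in MGE and -1.23 in CTX. Proteins with domains derived from transposases were also present. In MGE and CTX in turn, Tigd3 differed by -0.82 and -1.09, and Jrk by -1.14 and -0.81. Thap11, with a THAP DNA-binding domain, differed by -0.73 and -0.75. Apart from these, Setmar, a SET-domain protein, differed by -0.72 and -1.13. All of these genes were picked out after their values were seen.

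The RNA-processing group had median falls of -0.683 in MGE and -0.621 in CTX and included Exosc6, a core subunit of the RNA exosome (-0.63 and -0.62), Utp23, a ribosomal RNA processing factor (-0.60 and -0.54), and Papolg, a poly(A) polymerase (-0.57 and -0.58). For Papolg a second probe set differed by 0.16 in MGE and 0.0057 in CTX. Polr3f, a subunit of RNA polymerase III, differed by -0.55 and -1.19, but its other 3 well-detected probe sets lay between -0.080 and 0.24 in MGE and between -0.14 and -0.067 in CTX. The falls of Papolg and Polr3f thus belong to single probe sets. Genes of mitochondrial gene expression and lipoylation numbered 6, among them Tefm, the mitochondrial transcription elongation factor (-0.81 and -0.71), Pars2, the mitochondrial prolyl-tRNA synthetase (-0.84 and -0.52), and Ddx28, a helicase of mitochondrial ribosome assembly (-0.61 and -0.58). No subunit of the respiratory chain (0 of 89) and no cytosolic ribosomal protein (0 of 50) was among the 111. The rule took 0.897% of all genes, so lists of this size are too small for a count of 0 to stand out.

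Receptors and signalling proteins numbered 12. Gpr6, a receptor coupled to cyclic AMP production, differed by -0.69 in MGE, where it was weakly detected (4.54 to 6.37 at 0 and 1 h), and by -1.46 in CTX. Lpar2, a receptor for lysophosphatidic acid, differed by -0.60 and -0.85. Kinases included Dyrk3 (-0.65 and -1.09) and Cdk20 (-0.65 and -0.56), and small GTPases included Rasl11b (-0.71 and -1.27) and Rhov (-0.52 and -0.56). Of a list of 339 tested ubiquitin ligase, adaptor and protease genes drawn up by symbol, 4 were included (1.18%; the rule took 0.897% of all genes), namely Kbtbd8, Rnf113a1, a RING finger protein (-0.78 and -0.62), Fbxo5, an inhibitor of the anaphase-promoting complex (-0.52 and -0.54), and Fbxw17 (-0.52 and -0.52). Rbx1, the RING subunit of cullin ligases, is not on that list and differed by -0.80 and -0.59. Metabolic genes besides Txnip included Ppp1r3c, which targets protein phosphatase 1 to glycogen (-1.23 and -0.91), and Ppcs of coenzyme A synthesis (-0.75 and -0.83). The host transcript of a miR-124 hairpin, Mir124a-1hg, stood at 11.97 to 12.18 in MGE at 0 h and differed by -0.84 and -0.87; it too was chosen after its values were seen.

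The other pathway lists, also drawn up by symbol, are read against the 0.897% of all genes that the rule took, and their counts are too small to tell a list from that share. Counts were 2 of 104 G protein-coupled receptors (1.92%), 1 of 25 FoxO target and insulin signalling genes (4%), 2 of 182 protein kinases (1.1%), 4 of 283 coiled-coil, WD-repeat, centrosome and cilium genes (1.41%), 1 of 162 RNA decay and RNA-binding genes (0.617%), 2 of 157 RNA polymerase, Mediator and nucleolar genes (1.27%) and 2 of 216 small GTPases and their regulators (0.926%). None came from 101 homeobox, HLH, Sox and Fox transcription factors, 43 BMP, TGF-beta, Notch and Hippo genes, 165 chromatin regulators, 187 channel, transmitter receptor and adhesion genes, 18 clock genes or 21 rapid response genes (0 in each list). The rapid response genes had median differences of 3.09 in MGE and 3.5 in CTX over the same hour.

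The 111 genes were short. The genomic span between the first and last base in RefSeq had a median of 5067 bp for the 109 genes with a span, against 24702 bp for 12323 tested genes. Of the 109, 52 (47.7%) spanned under 5000 bp and 80 (73.4%) under 10000 bp, against 11.8% and 24.5% of tested genes. Of the 109, only Atp2b4, a plasma membrane calcium pump of 98386 bp, spanned over 50000 bp (0.917%), against 29.8% of tested genes. Sorted into 5 bins of near-equal size by span, the shortest bin held 72 of the genes and the longest held 1. The 137 genes higher at 1 h in both cultures had a median span of 11165 bp, and the left-out Zfp genes one of 14512 bp. Genes annotated as long noncoding RNA made up 18 of the 111 (16.2%), against 3.18% of tested genes. These are descriptions with no test.

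**Figure D2:**
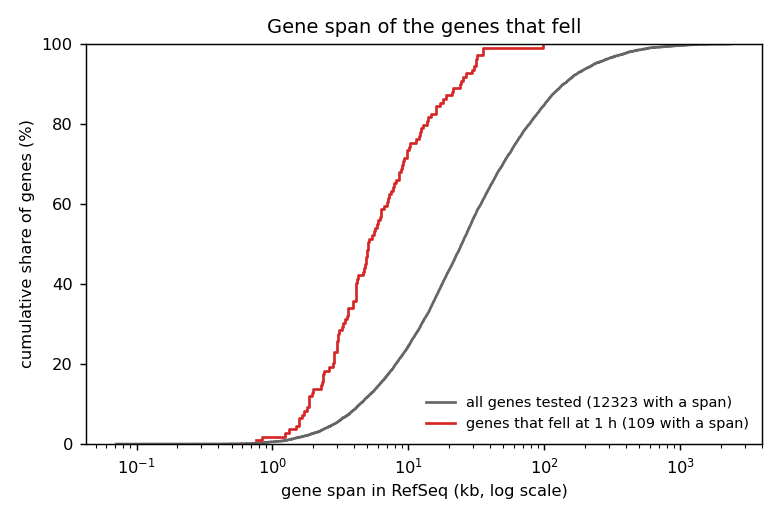
Cumulative share of genes (y axis, percent) by genomic span in RefSeq (x axis, kilobases, log scale) for all tested genes and for the genes that fell at 1 h. The curve of the falling genes lies to the left, with a median of 5067 bp against 24702 bp.

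At 0 h their median log2 intensity was 9.0 in MGE and 8.82 in CTX, against 10.2 in both for all tested genes, with a range of 5.82 to 12.75. Of the 111 genes, 43 lay above the array median in all 24 arrays, and 16 did so in under 12 arrays. Other probe sets existed for 41 of the genes (54 probe sets), of which 44 differed below 0 in both cultures and 11 by at most -0.5 in both. Among the 17 of these with a mean log2 intensity of at least 7, 14 were below 0 in both cultures and 4 met -0.5 in both.

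A difference between WT and KO in the fall was not detected. By the means of 2 arrays, all 111 genes were lower at 1 h in WT and in KO of both cultures, and 82 met -0.5 in all 4. The choice of genes on WT and KO together favours both counts. The median fall was -0.8 in MGE WT and -0.727 in MGE KO, and -0.747 in CTX WT and -0.818 in CTX KO. The difference between the falls of KO and WT is independent of the rule where arrays have equal error. In limma's test 0 of 111 genes passed in MGE (0.00808% of tested genes were called) and 0 in CTX (0.00808%). At an unadjusted p under 0.05 there were 0 genes in MGE and 1 in CTX, 1700012D14Rik, whose fall differed by -0.96 ± 0.26 (SE; 2 arrays per group) in KO minus WT. Its array values in CTX were 6.58 and 7.0 in WT and 7.35 and 7.14 in KO before KCl, and 5.62 and 5.61 in WT and 5.21 and 5.02 in KO after 1 h. The WT and KO arrays did not overlap at either time, in opposite order.

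**Figure D3:**
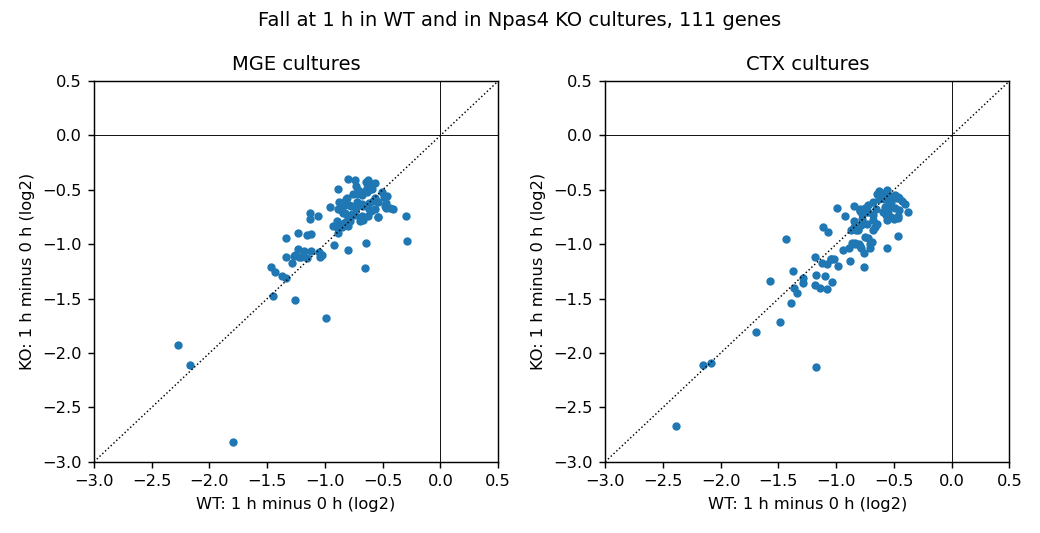
Difference between 1 h and 0 h (log2) of the 111 genes in WT (x axis) and KO (y axis) cultures, 1 panel per cell type; the dotted line marks equal differences. All points lie below 0 on both axes, which the choice of genes favours, and they scatter around the line, with medians of -0.8 and -0.727 in MGE and -0.747 and -0.818 in CTX.

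At 6 h the levels differed between the cultures. The median difference from 0 h was -0.542 in MGE, smaller than at 1 h, and -1.49 in CTX (2.81-fold lower), larger than at 1 h. At 6 h 59 genes were at most -0.5 from 0 h in MGE (18% of tested genes) and 93 in CTX (26.9%), and 74 were at most -1 in CTX (11.6%) against 23 in MGE (4.77%). From 1 h to 6 h, 38 genes went up by at least 0.5 in MGE (7.29%) and 13 went down by as much (13.8%). In CTX 13 went up by at least 0.5 (11.4%) and 58 went down by as much (24.3%). Measured from 0 h, 14 genes in MGE and 8 in CTX stood above their starting level at 6 h. The 4 arrays at 6 h lay entirely below those at 0 h for 54 genes in MGE (20.4%) and 91 in CTX (34.2%). They lay entirely below those at 1 h for 9 genes in MGE (20.9%) and 39 in CTX (30.1%), and entirely above for 39 in MGE (11.1%) and 11 in CTX (14.9%). The 0 h and 1 h arrays also chose the genes, so these values are descriptions.

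**Figure D4:**
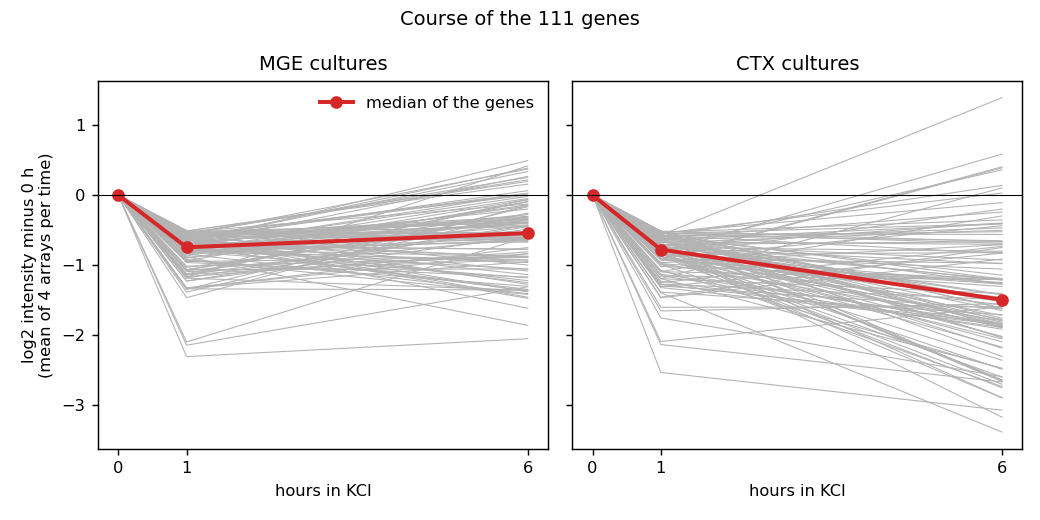
Log2 intensity relative to 0 h (y axis) at 0, 1 and 6 h of KCl (x axis) in MGE and CTX cultures; grey lines are the 111 genes, each a mean of 4 arrays per time, and the red line is their median. The medians reach -0.745 at 1 h and -0.542 at 6 h in MGE, and -0.777 and -1.49 in CTX.

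A test that is independent of the rule compared 6 h with the midpoint of 0 h and 1 h, since this midpoint is uncorrelated with the 1 h minus 0 h difference where arrays have equal error. A gene that keeps its 1 h level lies below the midpoint, and a gene that returns to its 0 h level lies above it. In CTX 81 of the 111 genes were called below the midpoint (35.4% of tested genes were), 7 above it (17.5%) and 23 were not called, by limma with Benjamini-Hochberg adjustment over 12378 genes. The median was -0.973, against -0.0923 over all tested genes. In MGE 26 genes were below (23.5%), 13 above (12.3%) and 72 not called, with a median of -0.122 against -0.051. Counting both directions, 88 genes were called in CTX (52.9%) and 39 in MGE (35.8%). The MGE shares, 23.4% and 11.7%, were close to those of all genes. All 26 genes called below in MGE were also called below in CTX (17.3% of tested genes were below in both). Of the others, 51 were below in CTX and not called in MGE, and 4 were below in CTX and above in MGE. For these 51 and 4 genes the shares of tested genes are not given, so the counts are descriptions.

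The 13 genes called above in MGE rested on all of the 6 h arrays. With 1 MGE array at 6 h left out, WT or KO and either replicate, 5 to 8 genes were called. In CTX at 6 h the arrays of repeat 1 and repeat 2 stood apart. Between the repeats, 41 of the 111 genes in WT and 22 in KO were over 2-fold apart (980 and 464 of the 12378 tested genes were), and the median level at 6 h was 7.58 in repeat 1 and 6.76 in repeat 2. Within repeat 1 the median difference from the midpoint was -0.624, with 85 genes below 0 (60.0% of tested genes were), and within repeat 2 it was -1.45, with 100 below 0 (56.9%). The direction was the same in both repeats for 84 genes below and 10 above. The share of all tested genes with the same direction in both is not given, so these counts are descriptions. With both CTX 6 h arrays of repeat 2 left out 66 genes were called below and 11 above, and with those of repeat 1 left out 88 and 7. The 3′ to 5′ signal ratio of the Gapdh control probes, a sign of RNA integrity, was 0.539 to 0.577 (log2) in CTX at 6 h and 0.598 to 0.696 in CTX at 0 and 1 h. Marker means in CTX at 6 h against 0 and 1 h were 12 to 12.4 against 11.7 to 11.9 for excitatory cortical neurons, 10.3 to 11 against 10 to 10.5 for MGE interneurons and 7.28 to 8.42 against 6.62 to 7.97 for progenitors. The part of any of these in the result was not tested. For fits with arrays left out and for the other alternative fits, here and below, the shares of all tested genes called are not given.

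Among the named genes, Zbtb8b, Zkscan4 and Tefm lay farthest below the midpoint in CTX. Zbtb8b, a BTB zinc finger protein, was 9.14, 8.79, 9.14 and 9.10 at 0 h, 8.36, 8.27, 8.26 and 8.34 at 1 h, then 6.27, 5.0, 6.61 and 5.61 after 6 h (WT replicates 1 and 2, then KO replicates 1 and 2). The arrays at the 3 times did not overlap, and the replicate 2 arrays were the lower ones at 6 h. Zbtb8b lay -2.80 ± 0.35 (SE) from the midpoint (adjusted p = 9.3e-06 by limma). Zkscan4 was 8.79, 8.88, 9.02 and 8.84 at 0 h, 7.25, 7.74, 7.27 and 7.68 at 1 h, then 6.24, 4.88, 5.80 and 5.07 after 6 h. Its mean at 6 h was 10.4-fold below 0 h, a fold best read as a lower bound since the 6 h arrays were weakly detected, and it lay -2.69 ± 0.26 from the midpoint. Tefm went from 10.30 to 10.41 at 0 h through 9.51 to 9.77 at 1 h to 8.03, 7.04, 7.78 and 7.02 at 6 h, which is -2.53 ± 0.16 from the midpoint. Pars2, from the same mitochondrial group, lay -2.40 ± 0.15 from it. All 6 genes of that group were called below in CTX (35.4% of tested genes; 73% of the 111 genes). In MGE 2 of them were (23.5%; 23.4% of the 111 genes), with no test of the group.

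Dnajc28, a DnaJ-domain protein, was far below the midpoint in both cultures. Its arrays in MGE were 10.13 to 10.67 at 0 h, 9.25 to 9.70 at 1 h, then 8.35, 8.96, 8.23 and 8.51 after 6 h, and in CTX 9.66 to 9.97, 8.82 to 9.19 and then 7.23, 6.44, 7.45 and 6.53. Each step was without overlap, at -1.42 ± 0.18 from the midpoint in MGE and -2.47 ± 0.18 in CTX. Ccdc166, a coiled-coil protein, had -1.31 ± 0.14 in MGE and -1.53 ± 0.14 in CTX. Naif1, a nuclear protein linked to apoptosis, had -1.17 ± 0.17 and -2.18 ± 0.17, Exosc6 had -1.16 ± 0.18 and -1.88 ± 0.18, and Ppcs had -0.99 ± 0.16 and -2.07 ± 0.16. Ice2, a subunit of the complex that elongates small nuclear RNA transcripts, had -2.35 ± 0.14 in CTX. Each of these values passed limma's test, and none of these genes had moved back toward its 0 h level at 6 h.

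Tm9sf1 lay farthest above the midpoint in MGE. Tm9sf1, a membrane protein of the endosomal system, was 7.17, 7.18, 7.14 and 6.86 at 0 h, 5.98, 5.91, 6.17 and 5.60 at 1 h, then 7.53, 7.33, 7.61 and 7.54 after 6 h in MGE. All arrays at 6 h lay above all arrays at 0 h, and the mean lay 1.00 ± 0.19 above the midpoint (adjusted p = 0.00078 by limma). In CTX Tm9sf1 lay -0.11 ± 0.19 from it, with replicate 1 above (6.98 and 7.0) and replicate 2 lower (5.77 and 6.21). Wdr38 returned to 8.50 to 8.98 in MGE, within its range at 0 h or just below it, and stayed at 6.90 to 7.39 in CTX, and it was called above in MGE (0.59 ± 0.10) and below in CTX (-0.55 ± 0.10). The other named genes above the midpoint in MGE were Sft2d3 (0.71 ± 0.24), a vesicle traffic protein, Slc31a2 (0.62 ± 0.18), a copper transporter, Polr3f (0.53 ± 0.16) and Pi4kb (0.49 ± 0.15), a phosphatidylinositol kinase of the Golgi. A second Pi4kb probe set (mean 6.89) was not lower at 1 h, at 0.077 in MGE and 0.072 in CTX, so the fall of Pi4kb belongs to a single probe set. Of the 12 transport, traffic and glycosylation genes, a group drawn up after the genes were known, 4 were called above in MGE (12.3% of tested genes) and 0 below (23.5%), and in CTX 9 were below (35.4%; 73% of the 111 genes) and 0 above (17.5%). Sft2d3, Slc31a2, Polr3f and Pi4kb each lost the call when at least 1 of the MGE arrays was left out on its own.

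In CTX 7 genes were called above the midpoint. Srrm4os, a noncoding transcript named for lying opposite the neuronal splicing factor gene Srrm4, was 8.28, 8.12, 7.99 and 7.83 at 0 h, 7.55, 7.60, 7.20 and 7.60 at 1 h, then 9.27, 9.72, 9.25 and 9.55 after 6 h. At 6 h every CTX array exceeded every 0 h array, 1.68 ± 0.14 above the midpoint, whereas in MGE it remained at 8.51 to 8.70 (-0.12 ± 0.14; not called). Atp2b4, the calcium pump, had 7.49, 7.66, 7.16 and 7.63 at 0 h, 6.48 to 6.87 at 1 h, then 7.68, 8.24, 7.74 and 8.62 after 6 h, 0.99 ± 0.16 above the midpoint. Ppp1r3c was 7.61, 7.06, 7.47 and 6.63 at 0 h, 6.77, 6.34, 6.39 and 5.65 at 1 h, then 7.60, 8.04, 7.87 and 6.89 after 6 h (0.86 ± 0.21), where KO replicate 2 was the lowest array at each time. Alkbh4, a demethylase of the AlkB family, had 0.85 ± 0.15 and its other 2 well-detected probe sets differed at 1 h by -0.77 and -0.62 in MGE and by -1.0 and -0.86 in CTX. Polr3f had 0.70 ± 0.16, but the mean of its probe sets gave -0.17. Rbx1 had 0.43 ± 0.13 at low levels (5.28 to 6.36) and lost the call without CTX WT replicate 1 or CTX KO replicate 2 at 6 h, and the seventh gene was 4930428B01Rik (0.74 ± 0.10).

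**Figure D5:**
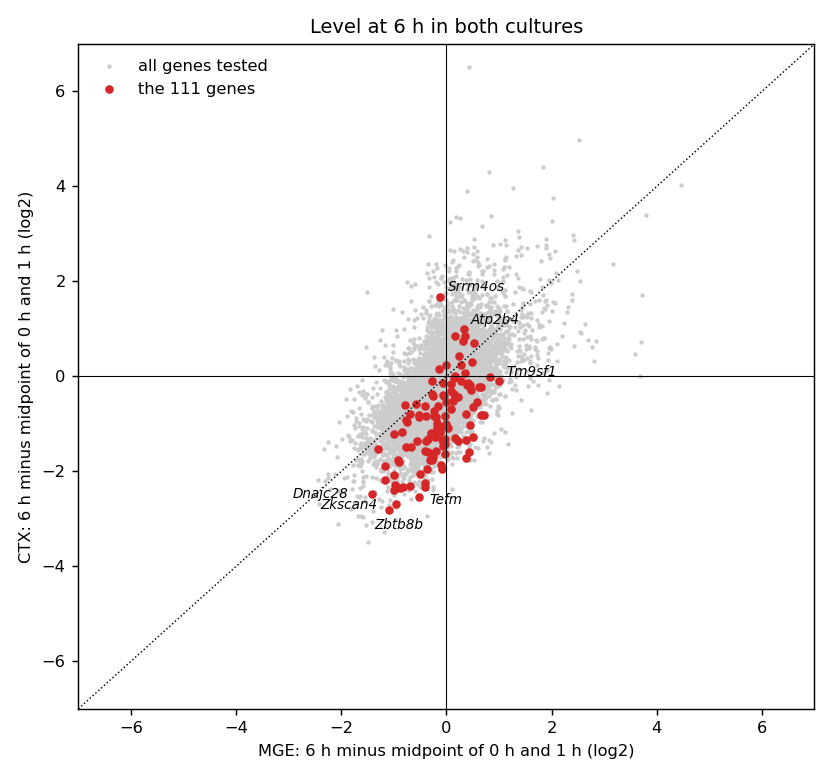
Level at 6 h minus the midpoint of 0 h and 1 h (log2) in MGE (x axis) and CTX (y axis) for all 12378 tested genes (grey) and the 111 genes (red); the dotted line marks equal values. Most red points lie below the line, with medians of -0.122 in MGE and -0.973 in CTX, and Srrm4os stands apart at -0.12 and 1.68.

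The difference between the cultures in this 6 h contrast was itself tested. For 64 genes MGE was above CTX (18.3% of tested genes), for 3 it was below (10.2%; 28.5% in either direction) and 44 were not called, with a median difference of 0.843 against 0.0485 over all genes. Leaving out both CTX 6 h arrays of repeat 2 gave 44 genes above, and leaving out those of repeat 1 gave 75. Tefm had the largest named difference, 2.01 ± 0.23 (adjusted p = 3.2e-05 by limma), since it was -0.53 from the midpoint in MGE and -2.53 in CTX. It was followed by Slc16a13, a monocarboxylate transporter family member (1.91 ± 0.40), Map10, a microtubule-associated protein (1.86 ± 0.39), Tgds, a sugar-nucleotide dehydratase (1.84 ± 0.31), and Rsl1 (1.78 ± 0.40). Rsl1 was back at 8.64 to 9.08 in MGE at 6 h, near its 8.80 to 9.09 at 0 h, and in CTX it was 8.47 and 6.33 in WT and 8.72 and 7.61 in KO after 9.57 to 9.78 at 0 h. Tgds was weakly detected in MGE (5.56 to 7.38). The 3 genes below were Srrm4os (-1.79 ± 0.20), Atp2b4 (-0.66 ± 0.23) and 4930428B01Rik (-0.41 ± 0.14). With any of 10 of the 24 arrays left out, namely replicate 1 of MGE WT 1 h, MGE KO 0 h, MGE KO 1 h and of CTX WT and KO at 0 h and 1 h, and replicate 2 of MGE WT 6 h, MGE KO 6 h and CTX WT 0 h, 1 gene was called, and Atp2b4 had an adjusted p of 0.044 with all arrays.

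A difference between genotypes at 6 h was not detected either. Of the 111 genes, 0 passed limma's test for KO minus WT in MGE (0.0323% of tested genes) and 0 in CTX (0.0485%), with 3 and 7 at an unadjusted p under 0.05. The smallest adjusted p was 0.143, for LOC102631979 in CTX. Bbs10, a chaperonin-like protein of the Bardet-Biedl syndrome complex, was 6.47 and 7.73 in CTX WT and 5.79 and 5.56 in CTX KO at 6 h, a difference of -1.43 ± 0.32 without overlap that did not pass (adjusted p = 0.18 by limma). With CTX WT 6 h replicate 1 left out, which leaves 1 WT array assumed to vary like the others, 5 genes were called, namely Bbs10 and LOC102631979 lower in KO and Rsl1, Riox1 and Ctu1 higher in KO. With both repeat 1 arrays of CTX at 6 h left out, 2 genes were called, Bbs10 and Rsl1, but this sets 1 WT against 1 KO array, with the spread taken from the other groups. The genes of these counts were named after their values were seen.

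The level of the genes over 0 h and 1 h is also independent of the rule where arrays have equal error. It differed between the cultures for 73 of the 111 genes (77.3% of tested genes). Of these, 52 were higher in MGE (42.7% of tested genes) and 21 lower (34.6%). The median over the 111 genes was 0.313, against 0.0768 over all tested genes. Genes higher in CTX included Papolg (-2.74 ± 0.25 in MGE minus CTX), Kbtbd8 (-2.18 ± 0.21), Dyrk3, a kinase that dissolves cellular condensates (-1.73 ± 0.11), Rasl11b (-1.63 ± 0.13) and Lpar2 (-1.52 ± 0.12). Rasl11b stood at 12.56 to 12.88 in CTX and 10.76 to 10.94 in MGE at 0 h. Genes higher in MGE included Ppcs (1.11 ± 0.13), Cdk20 (1.09 ± 0.12), Zkscan14 (1.07 ± 0.12), Tbcc, a tubulin folding cofactor (1.03 ± 0.24), and Rbx1 (0.99 ± 0.11). Cell composition differed between the cultures, and its part in these level differences cannot be told apart from expression per cell.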

How the data were processed

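RNA samples (100 ng each, amplified) were hybridized to 24 Affymetrix mouse genome arrays. The authors deposited linear intensity values, 6.61 to 29464 over 45101 probe sets, and RMA is named in the submitters' processing notes with no version. RMA makes arrays alike in distribution, which would hide a change common to most genes. Array medians were 115 to 121. The deposited intensities were converted to log2 here. The 34958 probe sets with 1 gene symbol in the platform annotation gave 18194 genes, each taken at its highest-mean probe set, of which 12378 exceeded the median of an array at least 2 times. Without this filter, which removed 5816 genes, 117 genes met the rule.

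Models were fitted with limma 3.58.1 (R 4.3.3), 1 mean for each of 12 groups (12 residual and 2.41 prior degrees of freedom), two-sided, with Benjamini-Hochberg adjustment over 12378 genes and calls at an adjusted p under 0.05, in 8 comparisons. Errors are standard errors, and precision is limited by the few arrays per group. The midpoint contrast, the level contrast and the KO minus WT contrast of the fall are independent of the rule only where arrays have equal error. The MGE WT arrays at 0 h were the noisiest. On simulated data with 12378 genes, 200 of them changed, 44.8% (MGE) and 50.7% (CTX) of changes of 0.5 were recovered in the midpoint contrast. For changes of 1 it was 88.1% and 94%, and for changes of 2 it was 100%. In the measured data 35.8% (MGE) and 52.9% (CTX) of tested genes were called. The adjustment depends on that share, so the simulated recovery may not carry over. In CTX, arrays with the same repeat number deviated together in 15 of 15 pairs of groups (correlations of 0.111 to 0.711), so the numbers were taken to pair them, from the data and not from a stated shared culture. The main models had no term for the repeat, so their errors and p-values treat arrays of the same repeat as independent, in CTX and in MGE. No call count moved by over 1.5 times with the repeat as a block. That block holds 1 offset between the repeats of a culture over all times, so it does not take up a shift limited to 6 h in CTX.

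Genes named were drawn from those with the 12 deepest falls and up to 6 (midpoint) or 5 (other comparisons) called per direction. Added to these were the 4 on each side of the threshold, up to 4 members of each pathway list, all called where 5 or fewer, and Fos, Npas4 and Egr1. Not every gene drawn is described. Of the 12 deepest, Wfdc3 (-0.95 in MGE and -1.15 in CTX) and Fkbpl (-1.03 and -0.91) are not described above. Genes and lists were chosen with earlier results of these data known. Alternatives covered normalization, an offset of 32, the filter, probe set averaging, array weights, the replicate block, other thresholds, each genotype alone and leaving out arrays. Promoters and spans came from RefSeq tables of GRCm38.p6.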

Additional observations from a re-analysis of the deposited data

Results flagged for a closer look

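The change at 6 h relative to the midpoint of 0 h and 1 h differed between MGE and CTX cultures by the test of that difference for 64 genes above and 3 below in MGE minus CTX. Among the named genes the differences (log2, MGE minus CTX) were 2.01 for Tefm, 1.91 for Slc16a13, 1.86 for Map10, 1.84 for Tgds, 1.78 for Rsl1, -1.79 for Srrm4os and -0.665 for Atp2b4. Within repeat 1 and repeat 2 of CTX, the difference from the midpoint was -2.07 and -3.0 for Tefm, -1.49 and -3.15 for Slc16a13, -1.01 and -2.88 for Map10, -2.04 and -2.44 for Tgds, -0.43 and -2.12 for Rsl1, 1.51 and 1.84 for Srrm4os, and 0.78 and 1.21 for Atp2b4. The sign of this CTX difference was the same in both repeats for these 7 genes. They were chosen for large differences with both repeats included, which favours that agreement, so it is a description.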

How the results depend on the processing

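The number of genes meeting the rule was 172 at a difference of -0.4 (all 111 among them) and 36 at -0.75, and 85 to 117 under the other alternatives that used all arrays. With 1 array left out in turn it was 101 to 118. In the midpoint contrast, leaving out 1 array gave 18 to 31 genes below and 5 to 17 above in MGE, and 69 to 85 below and 6 to 8 above in CTX. The difference between cultures then gave 50 to 72 above and 1 to 3 below, and the level contrast 48 to 56 above and 20 to 23 below. KO minus WT at 6 h in CTX gave 0 to 5 and the other genotype contrasts 0 throughout. Array weights left 1 gene below in the difference between cultures. Settings chosen after seeing the data left out both CTX 6 h arrays of 1 repeat. Without repeat 1, 21 genes were above in MGE and 2 called for KO minus WT in CTX, and without repeat 2, 21 were above in MGE and 11 above in CTX; the cause was not tested. Averaging probe sets reversed Polr3f in CTX (-0.1668, adjusted p 0.272), through its other probe sets. For the genes named in the contrasts, 1341 values kept direction and call, 46 lost the call and 1 reversed.

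With the replicate block 28 genes were below and 16 above in MGE, and 82 and 8 in CTX. In the difference between cultures 66 were above and 4 below, in level 53 and 22, and 0 were called in each genotype contrast. The shares of all tested genes with the block are not given, so these counts are descriptions. In MGE 13 of 15 pairs of groups had a correlation over 0.1 between same-numbered arrays (median 0.612, lowest -0.23, against a median of 0.369 in CTX). Since not every pair exceeded 0.1, the numbers were not taken as pairing there. The MGE median was still the higher one, so MGE arrays of the same repeat may also share deviations.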
